A study of Mus musculus with 9 samples.

Results

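The genes described here are the homeobox genes Msx1, Msx2 and Dlx1 to Dlx6 of the mouse, 8 of the 43644 genes in the deposited tables, taken by symbol and not by their measured values. RNA was sequenced from the coronal suture, which joins the frontal to the parietal bones by fibrous tissue, in C57BL/6 mice aged 7 months. The groups were REG (Twist1+/- mice whose suture had been regenerated surgically at 1 month), MUT (Twist1+/- mice without surgery) and WT (wild-type mice without surgery), with 3 libraries each. REG and MUT therefore share the Twist1 genotype and differ by the operation, and REG differs from WT by both. The labels also mention an induction a week before and pairs of samples without explaining either, and no pairing was used. No library is labelled as a sham operation, and the labels do not describe the Twist1 allele. They leave unstated whether the libraries stem from different animals, so p-values reflect only how far these libraries differ among themselves, which may be technical.

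Msx and Dlx genes encode homeodomain transcription factors that pattern the facial processes, teeth and skull vault. Msx genes respond to BMP signalling, and human MSX2 variants cause disorders of skull closure: excess activity fuses sutures early, and loss leaves gaps in the parietal bones. Mouse Dlx genes lie in convergently transcribed pairs, Dlx1 with Dlx2, Dlx3 with Dlx4 and Dlx5 with Dlx6, and are also used in the forebrain, the epidermis and the placenta. Twist1 encodes a basic helix-loop-helix factor that binds DNA motifs called E-boxes, and mice and people with a single working copy are prone to premature fusion of this suture.

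The libraries were not alike in depth or background. Estimated reads on genes ranged between 18276494 and 39377876 in REG, 2945636 and 10894209 in MUT, and 16356391 and 20019712 in WT. Background, estimated from 1747 olfactory and vomeronasal receptor genes, was 0.479% to 0.769% of reads in REG, 7.00% to 22.2% in MUT and 0.577% to 0.81% in WT, lowest among the MUT libraries in replicate 2. Mitochondrial genes held 9.7% to 15.5% of reads in REG, 2.01% to 4.78% in MUT and 9.96% to 13.5% in WT. The library names of MUT replicate 2 and REG replicate 3 differ in form from the others of their group, and the labels name no batch. The name of REG replicate 3 is formed like those of WT and of MUT replicates 1 and 3. REG replicates 1 and 2 have another form, and their names end like those of WT replicates 2 and 3. Each of 10 keratinocyte markers was found, summing to 17.9 to 30.1 reads per 1e+06 (RPM) in REG, 312 to 863 RPM in MUT and 20.8 to 32.2 RPM in WT. The 7 B cell markers summed to 109 to 236 RPM in REG, 1621 to 5406 RPM in MUT and 14.9 to 81.3 RPM in WT, and 8 dura and meninges markers to 37.5 to 92.5 RPM in REG, 387 to 908 RPM in MUT and 86.8 to 105 RPM in WT. The highest gene of these lists was Pax5 for B cells, Trp63 for keratinocytes and Zic1 for dura. Their deposited scaled values in MUT were 271 to 1547, 39.6 to 243 and 54.1 to 216. Limma called 1 B cell marker higher and 0 lower in MUT against WT. It called 2 keratinocyte markers higher and 1 lower, and 2 dura and meninges markers higher and 2 lower. Over all genes tested, 20.5% were called higher and 14.6% lower. A sum thus does not speak for each listed gene. The 11 markers of forebrain GABA neurons, cells that use Dlx genes, summed to 105 to 163 RPM in REG, 125 to 211 RPM in MUT and 150.1 to 159 RPM in WT. No gene of these 4 lists was at 3 reads or fewer in all 9 libraries. That does not show that each marker was expressed, because MUT replicates 1 and 3 held 20.2 and 13.2 background reads per kb. An unexpressed gene can pass 3 reads there. Up to 3 of the 10 keratinocyte markers were at 3 reads or fewer in a WT library. Neutrophil markers summed to 3000 to 10850 RPM in REG, 2218 to 4247 RPM in MUT and 418 to 2215 RPM in WT. In the same order, erythroid markers summed to 2250 to 4563, 3099 to 3392 and 513 to 1565 RPM. Skeletal muscle markers summed to 82.7 to 906, 72.55 to 80.2 and 12.5 to 116 RPM. Limma called 0 genes of these last lists in REG against WT. The part of these marker and background differences in the results below was not tested. In bulk tissue, fewer cells of a type and less RNA per cell cannot be told apart.

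The targeted gene was lower in both Twist1+/- groups than in WT. Twist1 had deposited scaled values of 3.76, 9.19 and 12.2 in REG, 0.987, 8.09 and 0.548 in MUT, and 16.2, 23.3 and 23.1 in WT. All 6 Twist1+/- libraries lay below all 3 WT libraries. The log2 change in MUT against WT was -3.26 ± 0.76 (SE; limma adjusted p = 0.0109), and with MUT replicate 2, the MUT library of lowest background, as the only MUT library it was -1.31 (limma adjusted p = 0.223). In fits with that 1 MUT library, it is assumed to vary like the libraries of the other groups. Expected background equalled 55.3%, 3.76% and 85.5% of Twist1 reads in the MUT libraries, in replicate order. After background subtraction the log2 change in MUT against WT was -2.91 (limma adjusted p = 0.05), which was not called. Of all genes, 25.9% were lower in MUT than in WT without overlap, so the fall does not by itself show the genotype.

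Values below are those the authors deposited, scaled between libraries to an equal upper quartile. A gene was called where limma, fitted on log2(value + 0.367) to all 9 libraries, gave a Benjamini-Hochberg adjusted p under 0.05 over the 29107 genes tested. All 8 Msx and Dlx genes were among those tested, and each was above the filter value in at least 1 library of every group.

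In the unoperated Twist1+/- suture, Msx1 and Dlx4 fell and no Msx or Dlx gene rose at the deposited scaling, whereas per total reads neither fall was called and limma called Msx2 (2.01, adjusted p = 0.0165) and Dlx2 (1.46, adjusted p = 0.0312) higher. Of the 8 genes, 2 were called lower and 0 higher in MUT against WT, where 35.1% of all genes tested were called, 14.6% lower and 20.5% higher. With only 2 of 8 called, the share was below that of all genes. The direction of calls over all genes followed the scaling: 5964 were higher and 4261 lower as deposited, 1778 and 7679 with trimmed-mean factors, and 11734 and 876 per total reads. The groups did not overlap for 4 of the 8 (Msx1, Dlx4, Dlx5 and Dlx6, each lower in MUT), against 58.5% of all genes, or 25.9% counting those lower in MUT. The median log2 change of the 8 was -1.21, and that of all genes was 0.18. The median of all genes depended on the filter. Among the 11449 genes that passed a filter 10 times stricter it was -0.99. It was -1.32 for the Msx and Dlx genes that passed, which left out Msx2, Dlx1 and Dlx2.

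In the regenerated suture, Msx1 was higher and Msx2 lower than in the unoperated Twist1+/- suture at the deposited scaling. Quantile scaling, background subtraction and a fit of only these 2 groups called neither. Trimmed-mean scaling called Msx1 but not Msx2, and total-read scaling called Msx2 but not Msx1. At the deposited scaling, 1 of the 8 was called higher and 1 lower in REG against MUT. There, 36.6% of all genes were called, 11.8% higher and 24.8% lower. Over all genes 3432 were called higher and 7221 lower as deposited, 8627 and 1861 with trimmed-mean factors, and 982 and 11455 per total reads. Msx1 and Dlx6 did not overlap between these groups, 2 of 8 against 42.5% of all genes, and both were higher in REG. The median log2 change was 0.56 for the 8 genes and -0.36 for all genes. With the filter 10 times stricter it was 1.11 for the Msx and Dlx genes that passed and 0.73 for all genes. This comparison and the previous one share the MUT libraries, so a library that is low in MUT moves both.

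Between the regenerated and the wild-type suture, none of the 8 genes was called by limma, and 0 of 29107 genes were (0%). At an unadjusted limma p under 0.05 there were 2755 genes (9.47%), of which Dlx5 was the 1 among the 8. The groups did not overlap for Dlx1, Dlx2 and Dlx5, 3 of 8 against 16.1% of all genes, each lower in REG, as were 12.1% of all genes without overlap. All 8 log2 changes were below 0, with a median of -0.89 against -0.18 for all genes. With the filter 10 times stricter these medians were -0.52 for the Msx and Dlx genes that passed and -0.24 for all genes. Under trimmed-mean, total-read and background-subtracted scaling, Dlx3 and Dlx6 were above 0 instead.

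**Figure D1:**
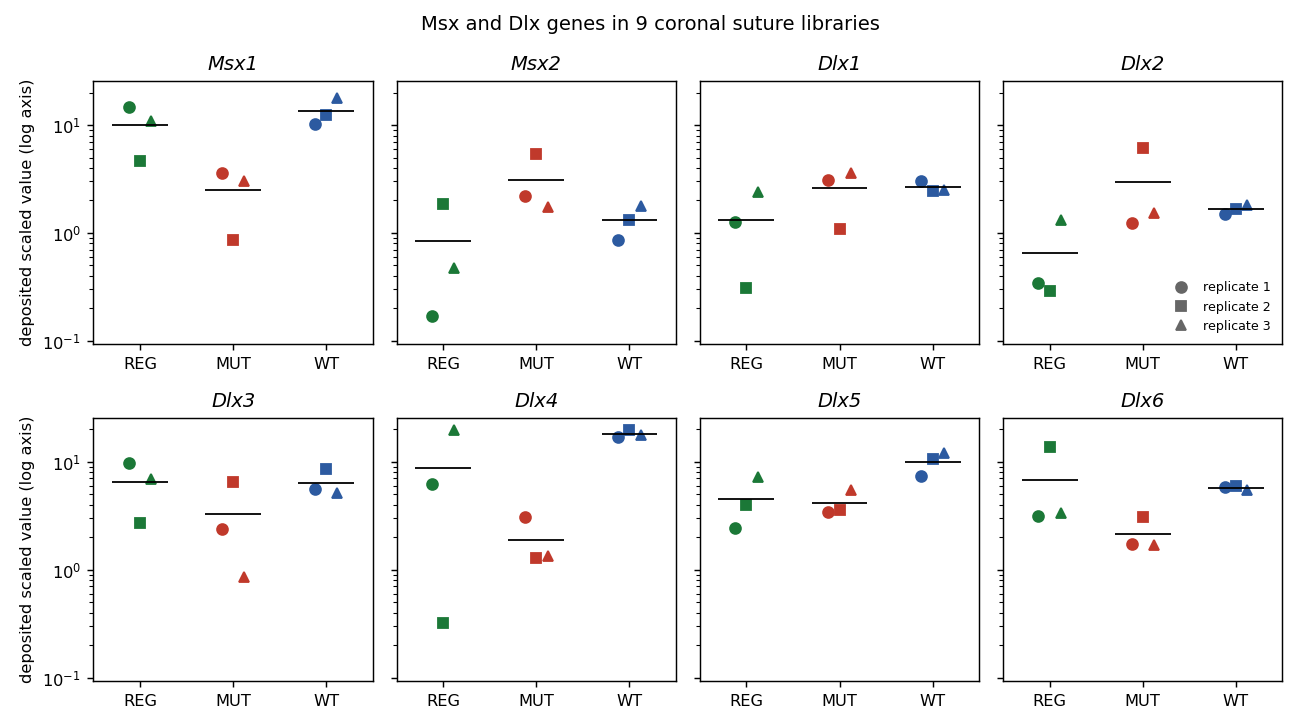
Deposited scaled value (log axis) of each of the 8 genes in the 3 libraries of REG, MUT and WT; points are libraries, shaped by replicate number, and lines are group means. Msx1 and Dlx4 lie lower in MUT than in WT without overlap, and Dlx4 in REG spreads between 0.319 and 19.8.

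**Figure D2:**
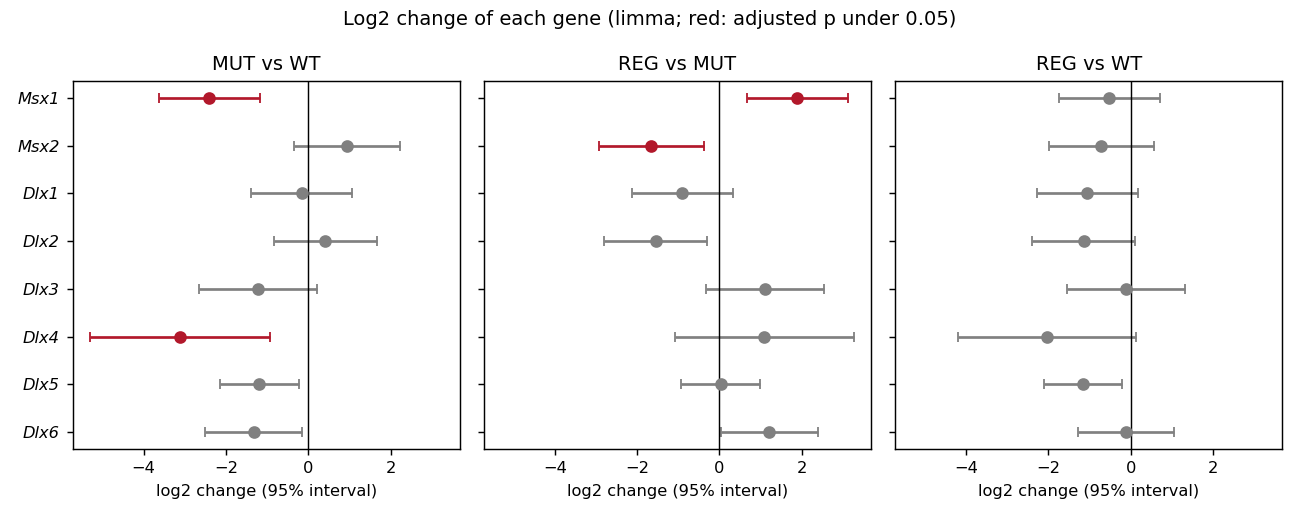
Log2 change of each gene with its 95% confidence interval in MUT against WT, REG against MUT and REG against WT, from limma; red marks an adjusted p under 0.05. The called changes are Msx1 and Dlx4 in MUT against WT and Msx1 and Msx2 in REG against MUT, and no gene is called in REG against WT.

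Msx1 (chromosome 5, 37820485 to 37824583, minus strand, mm10), a BMP-responsive repressor needed for palate and tooth formation, changed in both comparisons that involve MUT. It had values of 14.7, 4.66 and 10.8 in REG, 3.57, 0.868 and 3.06 in MUT, and 10.2, 12.5 and 18.0 in WT. MUT was below every library of the other groups, while REG and WT overlapped. The log2 change was -2.41 ± 0.55 in MUT against WT (limma adjusted p = 0.0102). It was 1.89 ± 0.55 in REG against MUT (limma adjusted p = 0.024), and -0.52 ± 0.55 in REG against WT, with a 95% interval of -1.75 to 0.71. The fall in MUT kept its call without any single library (limma adjusted p between 0.00426 and 0.0473). It was lost under total-read scaling (-1.30, limma adjusted p = 0.154) and background subtraction (-1.74, limma adjusted p = 0.197). The rise in REG was no longer called without MUT replicate 2 (1.36, limma adjusted p = 0.0641), REG replicate 1 (1.55, 0.071) or REG replicate 3 (1.77, 0.0548). It was also not called with quantile scaling (1.69, limma adjusted p = 0.0968), per total reads (1.12, 0.219), after background subtraction (1.57, 0.252) or with REG and MUT fitted alone (1.89, 0.0661).

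The size of the Msx1 difference was smaller when reads were divided by the total of each library. On that scale Msx1 had 40.02, 13.7 and 24.2 RPM in REG, 20.01, 2.61 and 18.4 RPM in MUT, and 22.1, 23.7 and 37.5 RPM in WT. MUT replicates 1 and 3 thus lay just under the lowest WT library and above REG replicate 2. MUT replicate 2, with 7.69 estimated Msx1 reads, lay far below all other libraries. The background expected over the Msx1 exons was 28.7%, 74.4% and 28.3% of its reads in MUT, against 0.97%, 0.642% and 0.551% in WT. The scalings also moved all genes: over all genes the median change for MUT against WT was 0.18 as deposited, -0.58 with trimmed-mean factors, -0.05 with quantile scaling, 1.11 per total reads and 0.26 after background subtraction. Relative to that median, Msx1 stood at -2.59, -2.57, -2.08, -2.41 and -2.0 under these scalings. Msx1 thus lay below the median gene under each of these 5 scalings. These medians include many low genes. With the filter 10 times stricter, the median of all genes at the deposited scaling was -0.99.

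Msx2 (chromosome 13, 53466884 to 53473074, minus strand), the paralog tied to human skull closure, did not follow Msx1. Its values were 0.169, 1.86 and 0.47 in REG, 2.21, 5.37 and 1.75 in MUT, and 0.859, 1.31 and 1.79 in WT. The highest value was that of MUT replicate 2, where Msx1 was lowest, and the groups overlapped in each comparison. In RPM, Msx2 had 0.436, 5.47 and 0.999 in REG, 12.4, 17.9 and 10.5 in MUT, and 1.80, 2.43 and 3.69 in WT, so on that scale MUT lay above both other groups without overlap. In RPM above background it had 0.242, 5.24 and 0.866 in REG, 6.29, 15.9 and 5.01 in MUT, and 1.57, 2.27 and 3.47 in WT. MUT then still lay above WT but overlapped REG. The log2 change was -1.66 ± 0.57 in REG against MUT (limma adjusted p = 0.0456) and 0.94 ± 0.57 in MUT against WT (limma adjusted p = 0.224, 95% interval -0.34 to 2.22). The REG against MUT call was close to the threshold and was lost under 17 of 23 alternatives, with limma adjusted p between 0.00717 and 0.508. Leaving out any single library other than REG replicate 2 ended it, with log2 changes between -1.94 without MUT replicate 3 and -1.21 without REG replicate 1. Background made up 49.2%, 11.5% and 52.4% of Msx2 reads in MUT. In REG against MUT, the median change of all genes was -0.36 as deposited, 0.71 with trimmed-mean factors, -0.01 with quantile scaling, -1.04 per total reads and -0.17 after background subtraction. Relative to it, Msx2 stood at -1.30, -1.32, -1.17, -1.39 and -1.94 and Msx1 at 2.25, 2.41, 1.71, 2.16 and 1.74.

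The balance between the 2 Msx genes was also compared within each library. The log2 ratio of Msx1 to Msx2, from deposited values with 0.367 added to each, was 4.81, 1.17 and 3.74 in REG, 0.61, -2.22 and 0.69 in MUT, and 3.11, 2.94 and 3.09 in WT. Msx1 exceeded Msx2 about equally in the 3 WT libraries, and every MUT library lay below every REG and WT library. With RPM above background (1 RPM added) the ratio was 5.04, 1.22 and 3.75 in REG, 1.07, -3.34 and 1.24 in MUT, and 3.16, 2.91 and 3.10 in WT, so that MUT still lay below WT but overlapped REG. On deposited values the difference was -3.35 for MUT minus WT and 3.55 for REG minus MUT, each with an exact two-sided permutation p of 0.1. That is the smallest p that 3 against 3 allows, and over the 12 ratio tests its adjusted value was 0.4. For REG minus WT the difference was 0.19 (exact permutation p = 1). Above background, the REG minus MUT difference was 3.68 (exact permutation p = 0.2).

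The sequence just before the start site is shown for Msx1, which changed most firmly, and for Dlx2, which also holds E-boxes and which limma called in no comparison at the deposited scaling. RefSeq windows on GRCm38.p6, the build of mm10, were at hand for 4 of the 8 genes (Msx1, Msx2, Dlx1 and Dlx2), and those of Msx2 and Dlx1 lie inside exons in GENCODE and are not printed. Each line gives the 250 bases before the first transcribed base, 5′ to 3′ on the gene's strand, with E-boxes (CANNTG) in capitals.
Msx1, chr5:37824586-37824835, minus strand: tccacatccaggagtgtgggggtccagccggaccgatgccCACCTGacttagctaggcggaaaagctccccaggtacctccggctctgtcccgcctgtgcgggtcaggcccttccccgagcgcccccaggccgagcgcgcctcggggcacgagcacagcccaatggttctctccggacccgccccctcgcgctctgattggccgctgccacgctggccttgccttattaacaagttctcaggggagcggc
Dlx2, chr2:71546755-71547004, minus strand: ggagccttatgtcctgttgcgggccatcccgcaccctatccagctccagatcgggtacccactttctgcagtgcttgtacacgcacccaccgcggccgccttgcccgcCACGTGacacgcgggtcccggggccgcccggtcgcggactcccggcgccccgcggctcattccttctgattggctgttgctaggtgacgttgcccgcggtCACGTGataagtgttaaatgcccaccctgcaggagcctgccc
Msx1 holds 1 E-box and Dlx2 holds 2, both CACGTG. E-boxes are common: 66.2% of 32851 such windows hold CANNTG, and 6.02% hold CACGTG, which is a special case of it. The homeodomain core TAATTA was found in the Msx2 window among these 4 genes and in 4.84% of all windows, and TAATTG and the SMAD element GTCTAGAC were in none of the 4. Both strands were searched, and a match describes letters, not binding.

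Dlx1 and Dlx2 (chromosome 2, 71528113 to 71533981 on the plus strand and 71543408 to 71546754 on the minus strand), a pair known from forebrain interneurons and the upper jaw, were low and were not called by limma in any comparison at the deposited scaling. In the authors' own deposited results, Dlx2 had a false discovery rate of 0.0462 for REG against MUT. Dlx1 had values of 1.26, 0.311 and 2.39 in REG, 3.07, 1.09 and 3.60 in MUT, and 3.05, 2.47 and 2.504 in WT. REG lay below WT in all 3 libraries, and MUT spread to both sides of WT. Its log2 change was -1.06 ± 0.55 in REG against WT (limma adjusted p = 0.558) and -0.16 in MUT against WT, with a 95% interval of -1.40 to 1.07. Dlx2 had 0.343, 0.292 and 1.31 in REG, 1.24, 6.07 and 1.54 in MUT, and 1.504, 1.68 and 1.82 in WT. MUT replicate 2 was the highest library and the other MUT libraries were near WT, while REG was below WT. Dlx2 changed by -1.55 ± 0.56 in REG against MUT (limma adjusted p = 0.0537), and limma called it without MUT replicate 1 (-1.93, adjusted p = 0.0479) or without REG replicate 3 (-1.98, adjusted p = 0.0263). It was also called per total reads (-2.33, limma adjusted p = 0.00426) and with MUT replicate 2 as the only MUT library (-2.80, limma adjusted p = 0.0293).

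In the MUT libraries much of the Dlx1 and Dlx2 signal was at the level of background. The expected background equalled 58.2%, 101% and 41.8% of Dlx1 reads and 76.8%, 8.82% and 51.9% of Dlx2 reads in MUT, against at most 6.94% in WT. With 9.88 estimated Dlx1 reads against 9.97 expected, Dlx1 was not detectable above background in MUT replicate 2. Dlx1as, on the opposite strand, shares 335 exon bases with Dlx1 (6.21% of it), and the sources used here do not state whether counting used strand. Log2 ratios of Dlx1 to Dlx2 overlapped between all 3 groups.

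**Figure D3:**
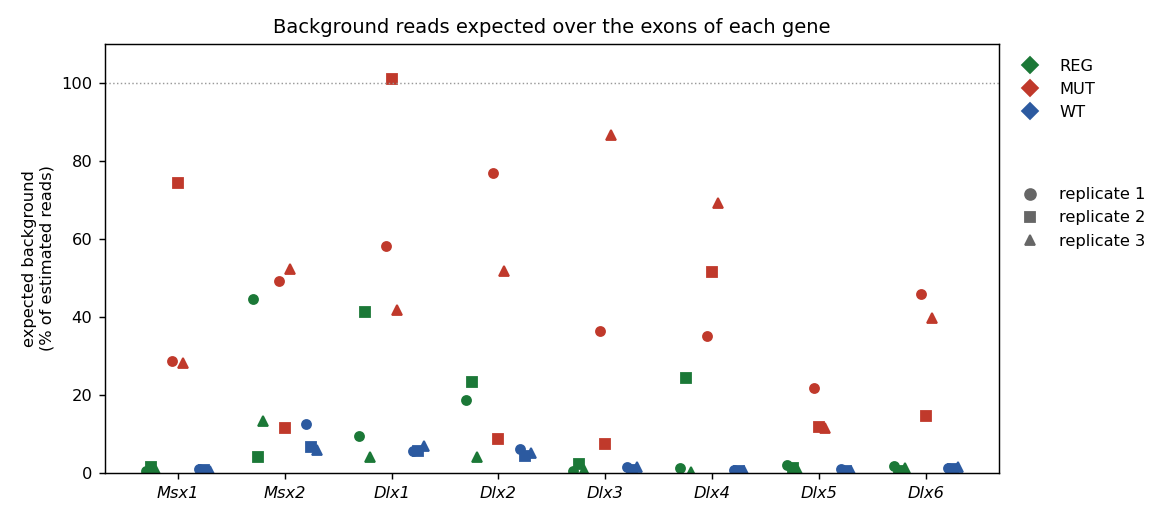
Background reads expected over the exons of each gene, as a percentage of its estimated reads, for each library of REG, MUT and WT; colours are groups, shapes are replicates, and the dotted line marks 100%. Each MUT library lies above all WT libraries of the same gene, except replicate 2 for Msx2, and Dlx1 in MUT replicate 2 reaches 101%.

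Dlx3 and Dlx4 form the pair on chromosome 11, where Dlx3, a factor of epidermis, tooth and bone, lies at 95120119 to 95125296 on the plus strand and Dlx4, best known from the placenta, at 95140447 to 95146263 on the minus strand. Dlx3 had values of 9.83, 2.72 and 6.98 in REG, 2.38, 6.54 and 0.853 in MUT, and 5.58, 8.54 and 5.16 in WT. All groups overlapped, with MUT replicate 2 inside the WT range and the other MUT libraries below it. The log2 change was -1.22 ± 0.64 in MUT against WT (limma adjusted p = 0.165) and 1.11 ± 0.64 in REG against MUT (limma adjusted p = 0.206). Without MUT replicate 2, limma called both: -1.86 in MUT against WT (adjusted p = 0.0401) and 1.74 in REG against MUT (adjusted p = 0.0463). Each was called in 3 of 24 alternatives, of which this is 1. The MUT against WT change was -0.13 per total reads (limma adjusted p = 0.869) and -0.79 after background subtraction (limma adjusted p = 0.559). For REG against MUT these were 0.36 (limma adjusted p = 0.652) and 1.01 (limma adjusted p = 0.454). Background was 36.3% and 86.7% of Dlx3 reads in MUT replicates 1 and 3, and 7.47% in replicate 2.

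Dlx4 showed the widest contrast of the 8 genes. Its values were 6.25, 0.319 and 19.8 in REG, 3.09, 1.27 and 1.33 in MUT, and 16.9, 19.8 and 17.8 in WT. The WT libraries were close together, MUT lay far below them, and the REG libraries ranged between the lowest and the highest of all 9. Means were 1.90 ± 1.04 in MUT and 18.2 ± 1.48 in WT (SD, n = 3 each), and the REG mean of 8.80 stands for none of its libraries. The log2 change in MUT against WT was -3.12 ± 0.98 (limma adjusted p = 0.0328). In REG it was 1.09 ± 0.98 against MUT (limma adjusted p = 0.414) and -2.03 ± 0.98 against WT (limma adjusted p = 0.534).

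The Dlx4 change kept its direction in every alternative run for MUT against WT, but its call was not firm. Leaving out any one MUT or WT library raised the limma adjusted p to between 0.0583 (without MUT replicate 1) and 0.0964 (without MUT replicate 3), with log2 changes between -3.47 and -2.93. All 9 libraries share 1 estimate of the spread, and without REG replicate 2 the limma adjusted p of Dlx4 was 0.00152 and REG against MUT became called (2.44, limma adjusted p = 0.0081). Total-read scaling gave -2.03 (limma adjusted p = 0.123) and background subtraction -2.72 (limma adjusted p = 0.103), and the limma adjusted p was 0.0539 without a filter and 0.0532 with the lower pseudocount. In RPM above background, Dlx4 stood at 11.2, 1.93 and 2.42 RPM in MUT and 36.2, 37.2 and 37.0 RPM in WT, so the groups did not overlap there either. Relative to the median of all genes, Dlx4 was at -3.30 as deposited and between -3.26 and -2.98 under the other 4 scalings.

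The lncRNA gene Dlx4os, which starts on the opposite strand within Dlx4 (chromosome 11, 95145052 to 95159047), moved the other way. Its values were 2.68, 3.55 and 0.149 in REG, 5.51, 7.82 and 4.74 in MUT, and 0.564, 0.264 and 0.162 in WT. All MUT libraries were above all REG and WT libraries, and REG replicate 3 alone was as low as WT. In RPM it had 7.29, 10.5 and 0.281 in REG, 30.9, 26.3 and 28.6 in MUT, and 1.16, 0.45 and 0.289 in WT. Background was at most 9.98% of Dlx4os reads in MUT. Its log2 change was 3.21 ± 0.68 in MUT against WT (limma adjusted p = 0.00735), a call lost in 1 of 24 alternatives, with MUT replicate 2 as the only MUT library (3.59, limma adjusted p = 0.0766). In REG it was -1.77 ± 0.68 against MUT (limma adjusted p = 0.0649), and it was called in 8 of 24 alternatives. These included total-read scaling (-2.58, limma adjusted p = 0.0163), background subtraction (-2.74, 0.0339), quantile scaling (-2.11, 0.042), the replicate block (-1.77, 0.0447) and the fit without REG replicate 2 (-2.32, 0.0214). Against WT it was 1.44 ± 0.68 in REG (limma adjusted p = 0.533), and without REG replicate 3 limma called it at 2.35 (adjusted p = 0.02).

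The 4 libraries highest in Dlx4, REG replicate 3 and the 3 WT libraries, were also the 4 lowest in Dlx4os. REG replicate 1 was intermediate for both genes. The transcripts share 79 exon bases, 2.42% of Dlx4 and 4.75% of Dlx4os, and 6 of 3195 stretches of 75 bases, the read length, in Dlx4 also occur in Dlx4os. The log2 ratio of Dlx3 to Dlx4 was -0.33, 2.08 and -0.47 in MUT and -1.53, -1.18 and -1.72 in WT, without overlap. Its difference of 1.90 had an exact two-sided permutation p of 0.1, the smallest possible, and an adjusted value of 0.4.

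**Figure D4:**
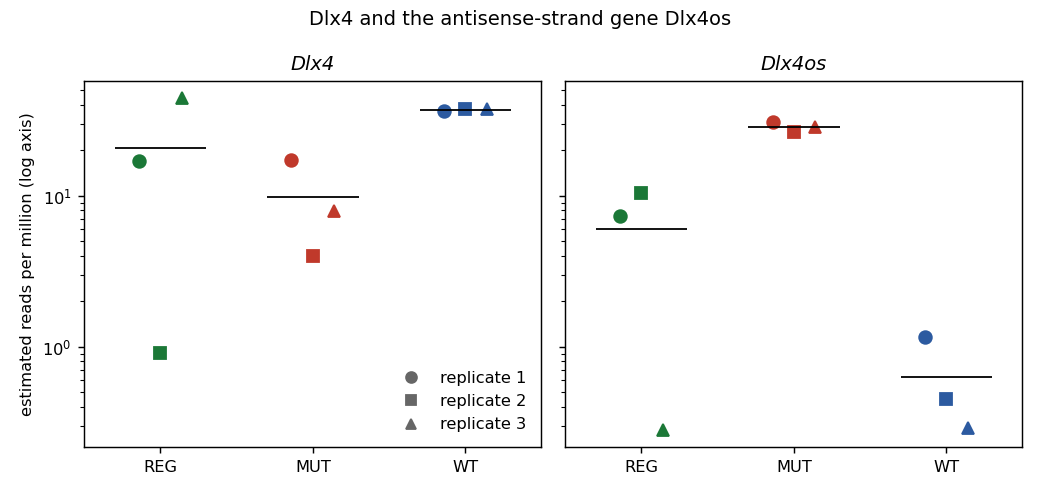
Estimated RPM (log axis) of Dlx4 and of Dlx4os, on the opposite strand, in each library of REG, MUT and WT; lines are group means. Dlx4os lies between 26.3 and 30.9 RPM in MUT and between 0.289 and 1.16 RPM in WT, and in REG replicate 3 Dlx4 is high and Dlx4os low.

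Dlx5 and Dlx6 (chromosome 6, 6877805 to 6882085 on the minus strand and 6863334 to 6868568 on the plus strand), the pair that specifies the lower jaw and, for Dlx5, acts in osteoblasts, were lower in MUT than in WT without passing the threshold. Dlx5 had values of 2.46, 3.96 and 7.27 in REG, 3.43, 3.60 and 5.49 in MUT, and 7.32, 10.7 and 11.97 in WT. All 6 Twist1+/- libraries were below all 3 WT libraries, by little for REG replicate 3. The log2 change was -1.19 ± 0.43 in MUT against WT (limma adjusted p = 0.0541) and -1.16 ± 0.43 in REG against WT (limma adjusted p = 0.509). It was 0.03 ± 0.43 in REG against MUT, with a 95% interval of -0.93 to 0.98. Leaving out any one REG library brought the MUT against WT change under the threshold (-1.19, limma adjusted p = 0.0384, 0.0466 and 0.0297 without REG replicates 1, 2 and 3).

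In RPM, Dlx5 did not separate MUT and WT. It had 19.2, 11.9 and 33.1 RPM in MUT and 15.8, 20.3 and 24.95 RPM in WT, so the groups overlapped. After background subtraction the log2 change was 0.01 (limma adjusted p = 0.996), and relative to the median of all genes it was -0.25, against -1.37 as deposited.

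Dlx6 had values of 3.13, 13.7 and 3.37 in REG, 1.72, 3.07 and 1.68 in MUT, and 5.83, 5.97 and 5.49 in WT. The WT libraries were tightly grouped, MUT lay below both other groups, and REG replicate 2 was the highest library. Its log2 change was -1.32 ± 0.53 in MUT against WT (limma adjusted p = 0.0755) and 1.21 ± 0.53 in REG against MUT (limma adjusted p = 0.0966). Without REG replicate 2, limma called the MUT against WT change (-1.32, adjusted p = 0.0105). In RPM, Dlx6 had 8.50, 40.3 and 7.52 in REG, 9.58, 10.1 and 10.1 in MUT, and 12.6, 11.3 and 11.4 in WT. On that scale MUT and WT were a small gap apart, and MUT was above REG replicates 1 and 3. Background was 45.9%, 14.7% and 39.6% of Dlx6 reads in MUT. In RPM above background, Dlx6 had 8.36, 40.1 and 7.42 in REG, 5.18, 8.63 and 6.07 in MUT, and 12.4, 11.1 and 11.3 in WT. There the gap between MUT and WT was wider, and MUT replicates 1 and 3 lay below every REG library. The log2 ratio of Dlx5 to Dlx6 overlapped between all groups, with a mean of -0.32 ± 1.36 in REG, 0.86 ± 0.65 in MUT and 0.73 ± 0.39 in WT (SD, n = 3 each).

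Compared per kilobase of exon, the order of the 8 genes was clearest in WT. Dlx4 (5.55 ± 0.451 scaled value per kb), Dlx5 (4.42 ± 1.06) and Msx1 (4.38 ± 1.28) overlapped at the top. Dlx3 (2.47 ± 0.706) and Dlx6 (2.43 ± 0.103) followed, and Dlx2 (0.585 ± 0.0557), Dlx1 (0.495 ± 0.06) and Msx2 (0.402 ± 0.142) overlapped at the bottom. In MUT every gene overlapped its neighbour in the order, which ran from Dlx5 (1.84 ± 0.505 per kb) to Dlx1 (0.479 ± 0.245), with Msx1 sixth (0.807 ± 0.464) and Dlx4 seventh (0.58 ± 0.317). In REG, Msx1, Dlx6, Dlx4, Dlx3 and Dlx5 overlapped between 3.25 and 2.02 per kb, apart from Msx2, Dlx1 and Dlx2 at 0.254, 0.245 and 0.227.

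Genes of the pathways around these factors were counted from lists chosen by function, but with earlier results of these data known. The counts are therefore descriptive. Of 22 BMP pathway genes, 13 were called lower and 2 higher in MUT against WT, and 9 higher and 2 lower in REG against MUT. Of all genes tested, 14.6% were called lower and 20.5% higher in MUT against WT. In REG against MUT, 11.8% were called higher and 24.8% lower. These shares apply to the lists below as well. The median log2 change of the BMP list was -1.83 in MUT against WT and 1.03 in REG against MUT, against 0.18 and -0.36 for all genes. Among all genes that passed the filter 10 times stricter, these medians were -0.99 and 0.73. Of those 11449 genes, 3985 were called lower and 910 higher in MUT against WT. In REG against MUT, 2780 of them were called higher and 872 lower. These counts too apply to the lists below. Genes named from this list and the lists below were among the 3 of smallest p in a comparison. Their small p-values follow from that choice. Id3, a BMP target that binds helix-loop-helix factors, averaged 23.9 ± 1.74 in REG, 4.11 ± 1.36 in MUT and 28.5 ± 5.31 in WT (SD, n = 3 each). Its log2 change was -2.72 ± 0.36 in MUT against WT (limma adjusted p = 0.00135). In REG against MUT it was 2.49 ± 0.36 (limma adjusted p = 0.00187). In MUT against WT, Smad7, an inhibitory SMAD, changed by -2.75 ± 0.37 (limma adjusted p = 0.00153) and Id1 by -2.94 ± 0.48 (limma adjusted p = 0.00271). Grem1, a secreted BMP antagonist, changed by -3.63 ± 0.58 in REG against MUT (limma adjusted p = 0.00261), and the receptor gene Bmpr1b by -1.66 ± 0.32 (limma adjusted p = 0.00498).

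Among osteoblast genes, 9 of 12 were called lower and 0 higher in MUT against WT, and 7 higher and 0 lower in REG against MUT, with medians of -2.95 and 2.24. Pth1r, the parathyroid hormone receptor, averaged 61.6 ± 19.8 in REG, 8.13 ± 3.92 in MUT and 131 ± 16.6 in WT. Of 13 other homeobox genes of skull mesenchyme, 7 were called lower and 0 higher in MUT against WT, and 4 higher and 1 lower in REG against MUT. Prrx1, a factor of early skeletal mesenchyme, averaged 47.0 ± 8.20 in REG, 10.97 ± 2.86 in MUT and 72.9 ± 20.8 in WT. In REG against WT, 0 genes of the 3 lists were called. After background subtraction, the genes called in either direction in MUT against WT numbered 5 of the 22, 4 of the 12 and 2 of the 13 listed. Over all genes that fit called 4058 of 23848, of which 3224 were higher and 834 lower, against 10225 as deposited. Per total reads the calls over all genes were 11734 higher and 876 lower, and list counts on that scale are not given here.

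Likeness to each gene was measured as the root-mean-square difference of centred log2 values over the 9 libraries, among 15254 genes. The closest to Msx1 were Pcdhga5 (0.23) and Irx3 (0.24), of which Irx3 is another homeobox gene. Nearest to Dlx4 were Wnt10b (0.32), a secreted Wnt ligand, and Dnhd1 (0.34). For Msx2 they were Ttll7 (0.29) and Tigar (0.30), for Dlx1 Nmd3 and Grin2c (0.19 each), for Dlx2 Rad17 (0.22) and Aven (0.25), for Dlx3 Ing5 and Kat7 (0.23 each), for Dlx5 Tmem218 (0.20) and Ugcg (0.21), and for Dlx6 Abcd3 and Orai2 (0.26 each). No Msx or Dlx gene was among the 2 closest to another.

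In the authors' deposited table, Msx1 and Dlx4 also had a false discovery rate under 0.05 in MUT against WT (0.0155 and 0.0432), with log2 ratios of 2.44 and 3.26 as WT over MUT. For REG against MUT, the authors' deposited table had Msx1 at 0.022, Msx2 at 0.0435 and Dlx2 at 0.0462, the last of these not called by limma. None of the 8 genes was under 0.05 for REG against WT in the authors' deposited table.

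**Figure D5:**
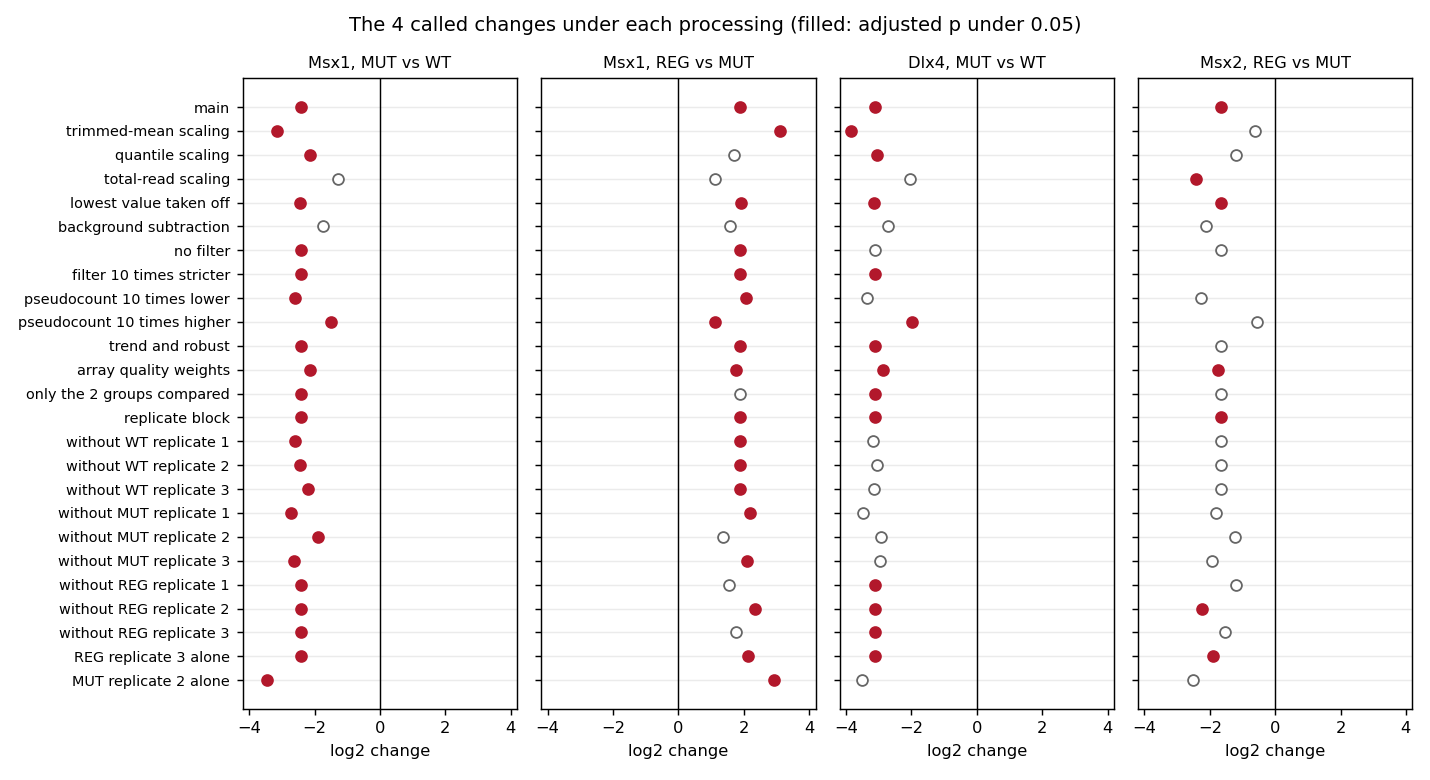
Log2 change of the 4 called Msx and Dlx results under the fit used here (top) and each alternative processing; filled points have an adjusted p under 0.05 and open points do not. Every point keeps its direction; Msx1 in MUT against WT is called in 22 of 24 alternatives and Msx2 in REG against MUT in 6 of 23.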

How the data were processed

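Total RNA of coronal sutures was sequenced as single-end reads of 75 cycles, per the labels' protocols. STAR 2.6.1d, Partek and the build mm10 are named in the submitters' processing notes, while the sources used here do not state the counting method or its use of strand. As deposited by the authors, the matrix holds a signal per gene and library, scaled to an equal upper quartile with an offset, as the values show; the low values are not all whole multiples of 1 read, so no count model was used. A second table the authors deposited holds log2 ratios, linear ratios, p-values and false discovery rates for the 3 comparisons. Its gene names were joined to the matrix by their order. The join was checked by 4 statistics per gene, which matched for all 43644 genes, and 0 matrix rows went unused. The set of 4 statistics was unique for 43484 genes. Positions are in mm10, 1-based.

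Reads were estimated by dividing each value by the smallest one in its library and taking off 1. The comparisons came from limma 3.58.1 (R 4.3.3; lmFit, eBayes) on log2(value + 0.367), keeping genes that reached 0.367 in 3 libraries or more, with all 9 libraries in 1 fit, two-sided p and Benjamini-Hochberg adjustment, so that fold changes of low genes are understated. Within-library ratios used exact permutation tests. Expected background is the reads per kb of 1747 receptor genes times the exon length in GENCODE. The fit was tested on simulated data. The genes and lists were chosen with earlier results of these data known. Named genes are the 8 members, Twist1, genes within 50 kb of a member, the 3 genes of smallest p per pathway list and comparison (of which some are given), and the 2 genes of closest pattern per member; Msx3 was added outside this rule. Alternatives were other scalings, filters, pseudocounts and variance models, a replicate block, and fewer libraries. Python 3.11.15, pandas 2.3.3 and scipy 1.17.1 were used for tables and tests. Depth is an estimate, and counting error is not separated from the spread between libraries.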

Additional observations from a re-analysis of the deposited data

How the results depend on the processing

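In MUT against WT, 10225 genes were called, and 5016 with quantile scaling, 4058 after background subtraction, 4895 with the stricter filter, 17589 with array quality weights and 4065 with MUT replicate 2 alone. In REG against MUT the count was 10653, and 4181, 3756, 3652, 5689 and 4264 with quantile scaling, background subtraction, the stricter filter, only the 2 groups compared and MUT replicate 2 alone. Leaving out 1 library gave 4511 to 12756 genes in MUT against WT and 0 to 1596 in REG against WT, where only the fit without REG replicate 3 called genes (410 higher, 1186 lower).

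Of the 8 genes, 2 were called in MUT against WT, with 5 under trimmed-mean scaling, 0 after background subtraction, 1 without a filter, 1 with the lower pseudocount, 5 with array weights, 4 with only the 2 groups, 4 with REG replicate 3 alone, 1 with MUT replicate 2 alone, and 1 to 4 leaving out 1 library. Total-read scaling also called 2, but these were Dlx2 and Msx2, both higher. In REG against MUT 2 were called, with 4 under trimmed-mean scaling, 0 with quantile scaling, 0 after background subtraction, 0 with only the 2 groups, 1 each without a filter, with the stricter filter, with either other pseudocount and with trend and robust options, and 0 to 3 leaving out 1 library. There, total-read scaling called 2, Dlx2 and Msx2, both lower. Msx2, Dlx1 and Dlx2 did not pass the stricter filter. No alternative called any of the 8 in REG against WT. The cause of these differences was not tested.

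Changes of sign concerned results that were not called as deposited, and the cause was not tested. In MUT against WT, Dlx1 (-0.16) was 0.93 per total reads, 0.17 with array weights and -0.44 to 0.29 leaving out 1 library. Dlx2 (0.41) was -0.30 with trimmed-mean and -0.004 with quantile scaling, -0.11 with array weights and -0.21 to 0.79 leaving out 1 library. Dlx3 was 0.06 with MUT replicate 2 alone, and Dlx5 0.01 after background subtraction. In REG against MUT, Dlx1 was 0.17 with trimmed-mean scaling and 0.03 with REG replicate 3 alone. With MUT replicate 2 alone, Dlx3 was -0.17 and Twist1 -0.09. Dlx5 (0.03) was -0.36, -0.80 and -0.84 with quantile, total-read and background-subtracted scaling, -0.09 with array weights and -0.35 to 0.37 leaving out 1 library. In REG against WT, Dlx3 (-0.11) was 0.36, 0.22 and 0.22 with trimmed-mean, total-read and background-subtracted scaling, 0.22 with array weights, 0.15 with REG replicate 3 alone and -0.48 to 0.38 leaving out 1 library. Dlx6 (-0.11) was 0.37, 0.23 and 0.23 under the same scalings and -0.76 to 0.24 leaving out 1 library. With REG replicate 3 alone, Dlx4 was 0.13 and Dlx4os -0.39.

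Ratios in RPM and in RPM above background, chosen after seeing the data, kept their direction in all 12 comparisons. For the ratios of deposited values, the pseudocount 10 times higher gave -0.22 for Msx1 over Msx2 and -0.05 for Dlx1 over Dlx2 in REG minus WT, -0.25 for Dlx3 over Dlx4 in REG minus MUT, and -0.09 for Dlx5 over Dlx6 in MUT minus WT. Leaving out 1 library gave -0.59 to 1.23 for Msx1 over Msx2 in REG minus WT. Dlx1 over Dlx2 then ran between -1.12 and 0.50 in MUT minus WT, -0.42 and 1.20 in REG minus MUT, and -0.19 and 0.38 in REG minus WT. Dlx3 over Dlx4 ran between -0.84 and 0.97 in REG minus MUT, and Dlx5 over Dlx6 between -0.20 and 0.46 in MUT minus WT. Msx1 over Msx2 stayed between -3.85 and -2.40 in MUT minus WT and between 2.59 and 4.58 in REG minus MUT.

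The labels number replicates 1 to 3 in each group, but same-numbered libraries did not deviate together (correlations of -0.053, -0.0443 and -0.0382 between MUT and WT, -0.0691, 0.045 and 0.0552 between REG and MUT, and 0.101, -0.196 and -0.146 between REG and WT), so the numbers were not taken as pairs. With the replicate block, 8766 genes and 3 of the 8 (Dlx5 in addition) were called in MUT against WT, 9373 genes and 2 of the 8 in REG against MUT, and 0 in REG against WT. Not every library correlated best with its own number.

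Depth and background limit the MUT values most: MUT replicate 2 had the fewest reads, and the other MUT libraries the most background.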

Other observations

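Other genes within 50 kb of a member were mostly low. Gm2762, a lncRNA gene 11253 bases from Msx2 on the opposite strand, averaged 0.333 ± 0.185 in REG, 2.91 ± 1.75 in MUT and 0.394 ± 0.21 in WT (SD, n = 3 each). It was called higher in MUT against WT (1.94 ± 0.51, limma adjusted p = 0.0176) and lower in REG against MUT (-2.06 ± 0.51, limma adjusted p = 0.0131). Expected background equalled 45.3%, 127% and 39.8% of its reads in MUT, so it was not detectable above background in MUT replicate 2. Dlx6os1, a noncoding gene that spans Dlx6 on the opposite strand without sharing exon bases, averaged 2.09 ± 0.924 in REG, 3.30 ± 1.86 in MUT and 1.80 ± 0.64 in WT and was not called. Dlx6os2, which shares 104 exon bases with Dlx6, averaged 0.379 ± 0.401 in REG, 0.532 ± 0.383 in MUT and 1.15 ± 0.211 in WT and was not called either. Itga3 and Metap1d, the protein-coding neighbours, were called in no comparison. Dlx1as, Gm44094 and Gm22155 were also not called, and Gm43763, Gm34022, Gm11514 and Gm27905 did not pass the filter. Msx3, the third Msx gene of the mouse, known from the neural tube and named here outside the rule for named genes, averaged 0.996 ± 0.401 in REG, 0.702 ± 0.379 in MUT and 1.17 ± 0.213 in WT, with a log2 change of -0.58 ± 0.39 in MUT against WT (limma adjusted p = 0.267).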
